A study of Mus musculus with 5 samples.

Results

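The genes described here make cholesterol, sense it and move it inside cells. They number 29, chosen by name from a fixed list, and all 29 were found in each of the 3 count tables, which hold 18307 genes (liver on the ApoE background), 24309 genes (aorta) and 22194 genes (the liver labelled WT without ApoE), or 25872 genes in any table. By role they comprised 7 mevalonate pathway enzymes, 1 isoprenoid branch enzyme, 3 enzymes from squalene to lanosterol, 9 enzymes from lanosterol to cholesterol, 5 genes of sensing and transport, 2 cholesterol esterification enzymes and 2 lysosomal export proteins. The series measured mouse liver and aorta by droplet single-cell RNA sequencing. It has 5 libraries, 1 per group: liver labelled DKO with ApoE, liver labelled WT with ApoE, liver labelled WT without an ApoE label, aorta labelled WT with ApoE and aorta labelled DKO with ApoE. The series title concerns liver epsins, endocytic adaptors encoded by Epn1 and Epn2. The labels do not spell out DKO, the ApoE allele, the driver of any deletion or the age of the animals. They name 3 mice for the liver isolation without saying whether a library pools them.

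Cholesterol is built from acetyl-CoA through mevalonate, isoprenoid diphosphates, squalene and lanosterol. When sterols are scarce in the endoplasmic reticulum, SCAP escorts SREBP2 (from Srebf2) to the Golgi, where its cleavage releases a transcription factor that acts on most genes of the pathway. When sterols are plentiful, the Insig proteins hold SCAP back. The liver is a main site of this synthesis, and the NPC1 and NPC2 proteins return cholesterol from lysosomes in every cell type that takes up lipoproteins.

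Promoter sequences from RefSeq (GRCm38.p6) were matched to 23 of the 29 genes, and 5 are printed because the results below turn on these genes. Hmgcs1 and Idi1 are enzymes that differed between hepatocyte clusters in both libraries on ApoE, and Insig1 and Insig2 are the paired sterol sensors. Npc2 alone was lower in the library labelled DKO in all 9 hepatocyte clusters 0 to 8, among 13 sterol genes with enough counts in each. Of all genes with enough counts in each, 10.8% were lower in all 9, no smaller a share. Each run is the 250 bases before the annotated start, read 5′ to 3′ on the gene's own strand. Capitals mark the CCAAT box (CCAAT, or ATTGG where it lies on the other strand) and the sterol regulatory element TCACNCCAC, both searched on both strands.
Hmgcs1, chr13:119690101-119690350, plus strand: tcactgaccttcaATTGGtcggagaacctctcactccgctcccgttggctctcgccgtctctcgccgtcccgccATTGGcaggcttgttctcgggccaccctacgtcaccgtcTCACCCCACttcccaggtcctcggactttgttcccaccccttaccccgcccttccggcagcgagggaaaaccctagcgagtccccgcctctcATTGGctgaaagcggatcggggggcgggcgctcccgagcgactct
Idi1, chr13:8885356-8885605, plus strand: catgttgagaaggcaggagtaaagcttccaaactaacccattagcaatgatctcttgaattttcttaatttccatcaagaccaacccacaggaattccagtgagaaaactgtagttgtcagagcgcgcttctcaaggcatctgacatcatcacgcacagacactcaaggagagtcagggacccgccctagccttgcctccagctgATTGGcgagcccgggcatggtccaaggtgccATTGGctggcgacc
Insig1, chr5:28071162-28071411, plus strand: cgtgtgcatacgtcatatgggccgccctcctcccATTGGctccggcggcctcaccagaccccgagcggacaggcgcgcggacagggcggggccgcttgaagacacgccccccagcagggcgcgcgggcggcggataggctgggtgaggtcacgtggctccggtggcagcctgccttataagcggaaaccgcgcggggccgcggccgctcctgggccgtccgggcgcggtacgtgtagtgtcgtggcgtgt
Insig2, chr1:121332590-121332839, minus strand: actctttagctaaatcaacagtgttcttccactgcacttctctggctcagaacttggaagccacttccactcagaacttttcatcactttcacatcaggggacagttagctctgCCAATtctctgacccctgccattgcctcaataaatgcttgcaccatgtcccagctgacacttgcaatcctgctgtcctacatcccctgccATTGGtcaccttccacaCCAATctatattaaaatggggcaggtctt
Npc2, chr12:84773113-84773362, minus strand: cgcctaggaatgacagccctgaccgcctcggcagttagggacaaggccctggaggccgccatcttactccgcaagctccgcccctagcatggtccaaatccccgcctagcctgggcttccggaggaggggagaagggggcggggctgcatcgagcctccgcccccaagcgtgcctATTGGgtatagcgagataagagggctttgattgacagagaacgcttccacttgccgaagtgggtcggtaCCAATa
Over the full window of 300 bases (250 before the start and 50 after it), TCACNCCAC was found in 1 of the 23 genes, Hmgcs1, at 137 bases before the start, against 1.24% of all 32851 windows. CCAAT was found in 21 of the 23 genes (91.3%), against 37.4% of all windows and 41.1% of all genes with a window. The pair without it was Acat2 and Scap. For Insig2 the printed window is that of the most upstream of its annotated starts. A match describes letters only.

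Each class of cells in a library was treated as 1 pool: its UMIs (unique molecular identifiers, 1 per captured RNA molecule) were added up and scaled to a total of 1000000, giving CPM. With 1 library a group no test is possible, so each value carries a 95% interval for counting error alone, and a ratio was given only where both libraries together held at least 50 UMIs. A ratio is called past the fold at 0.8 or below, or at the inverse of 0.8 or above. Libraries held 616 to 4331 cells and 1883798 to 10999072 UMIs, and no more than 7 barcodes were shared by any pair of libraries. Neither Epn1 nor Epn2 was lower in a library labelled DKO. Over all liver cells Epn1 was at 1.18 times (1.06 to 1.32) and Epn2 at 1.28 times (0.952 to 1.74) the WT level. In aorta they were at 1.1 (0.899 to 1.35) and 1.40 (1.24 to 1.58) times. Those libraries are therefore called "labelled DKO" throughout. Gm42418, a gene that collects ribosomal RNA reads, was at 38878 CPM in labelled-DKO hepatocytes and 23346 in WT hepatocytes, and these UMIs count in the denominator. Hepatocytes here are the deposited hepatocyte clusters 0 to 8 and 13 (3213 labelled-DKO and 4015 WT cells), without clusters led by haemoglobin, pancreatic acinar or cholangiocyte genes. Their 10 hepatocyte markers summed to 62918 and 75022 CPM, against 6.78 and 29.1 CPM for the 8 of them in the aortic table in smooth muscle. In bulk sums of this kind, fewer expressing cells and less RNA per cell cannot be told apart.

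Enzymes of cholesterol synthesis were mostly hepatocyte genes. The 19 enzymes on the route to cholesterol together reached 1682 CPM (1655 to 1708) in labelled-DKO hepatocytes, 1650.0 CPM (1623 to 1677) in WT hepatocytes on ApoE and 2047 CPM (1955 to 2143) in the liver labelled WT. In aortic smooth muscle (1034 labelled-DKO and 636 WT cells) they reached 338 CPM (310.2 to 367) and 365 CPM (330 to 403). Aortic macrophages gave 196 and 272 CPM and cells deposited as fibroblasts 194 and 185, in the labelled-DKO and WT libraries in that order. Aortic endothelial cells gave 288 and 368 CPM, and aortic T cells 408 and 396, in the same order. The deposited fibroblasts are the cluster FB1, led by Col10a1, Spp1 and Thbs1, with Col1a1 as its only leading fibroblast marker. Every aortic class named here thus lay far below hepatocytes, and red cell clusters of the aorta were lowest at 67.7 and 72.0 CPM.

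Gene by gene, 23 of the 27 genes with enough UMIs were past the fold on the higher side in hepatocytes against smooth muscle in the labelled-DKO libraries (32.8% of all genes were), and 21 of 27 in the WT libraries (32.9% of all genes). Sc5d, the desaturase of the late pathway, stood at 364 CPM in labelled-DKO hepatocytes and 9.87 in smooth muscle, and at 398 and 20.7 in the WT libraries. Its ratios of 36.9 (22.7 to 64.7) and 19.3 (12.7 to 30.8) were the widest gaps among the enzymes with at least 10 UMIs in smooth muscle of both libraries. Idi1, which isomerises isopentenyl diphosphate, was at 165 and 157 CPM in hepatocytes and 18.5 and 27.2 CPM in smooth muscle. Hmgcs1, the cytosolic HMG-CoA synthase, differed less: 285 and 248 CPM against 92.5 and 92.0 CPM, or 3.09 times (2.62 to 3.66) and 2.70 times (2.20 to 3.34). Some genes went the other way. Ggps1, which makes geranylgeranyl diphosphate for protein prenylation and so leaves the sterol route, was at 13.4 and 10.7 CPM in hepatocytes and 46.3 and 39.4 CPM in smooth muscle, a ratio of 0.290 (0.216 to 0.392) and 0.272 (0.187 to 0.401). Ggps1 overlaps Arid4b on the opposite strand in the annotation, and no source used here says whether counting used strand. Npc2 was also lower in hepatocytes than in smooth muscle, at 0.707 (0.603 to 0.833) and 0.696 (0.590 to 0.825) times. Srebf2, the SREBP2 gene, was at 23.7 and 23.3 CPM in hepatocytes against 28.98 and 30.03 CPM in smooth muscle. The ratios were 0.817 (0.594 to 1.15) in the labelled-DKO and 0.775 (0.532 to 1.16) in the WT libraries, the latter past the fold, and both intervals held 1.

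Within the liver, T cells (386 and 86 cells) and Kupffer cells (162 and 79 cells) carried less of most of these genes than hepatocytes did. In T cells 21 of 27 genes in the labelled-DKO library and 17 of 27 in the WT library were at 0.8 times the hepatocyte level or less, where 38.6% and 38.6% of all genes were. In Kupffer cells the counts were 21 of 27 (39.7% of all genes) and 16 of 27 (36.3%). Hepatocyte RNA was present in these cells. Alb, the albumin gene, which T cells do not make, stood in T cells at 0.321 times its hepatocyte level in the labelled-DKO library and 0.568 times in the WT library, and in Kupffer cells at 0.462 and 0.794 times. Hmgcs1 in T cells was at 112 and 134 CPM, or 0.393 times (0.311 to 0.489) and 0.541 times (0.367 to 0.770) the hepatocyte level. Sc5d was at 0.349 times (0.281 to 0.429) and 0.457 times (0.329 to 0.619). Insig2, at 49.2 and 82.2 CPM in T cells, gave 0.184 times (0.129 to 0.256) and 0.333 times (0.200 to 0.521), below the Alb ratio in both libraries. The Hmgcs1 and Sc5d intervals held the Alb ratio in both libraries. How much of such T cell levels was hepatocyte RNA was not tested, so they are not read as the cells' own. With each cell thinned to 1000 UMIs, Hmgcs1 was seen in 23.7% of labelled-DKO and 20.7% of WT hepatocytes (42.9% and 35.8% unthinned), and in 11.6% and 9.41% of T cells (19.4% and 29.1% unthinned). Thinning left out 925 labelled-DKO and 301 WT hepatocytes with fewer UMIs.

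A few genes stood well above the Alb ratio in the other liver cells. Lbr, which encodes the lamin B receptor and carries sterol C14-reductase activity, was at 150.2 CPM in labelled-DKO T cells and 90.9 CPM in WT T cells, against 15.3 and 17.3 CPM in hepatocytes. The ratios were 9.83 (7.59 to 12.7) and 5.24 (3.15 to 8.31). In cells thinned to 1000 UMIs, Lbr was seen in 12.7% and 7.06% of T cells and in 1.22% and 1.51% of hepatocytes (24.6%, 20.9%, 4.20% and 3.61% unthinned). Aortic T cells were similar in level, at 118 and 96.4 CPM. Tm7sf2 encodes the other C14-reductase, and the balance of the pair differed by cell type: Lbr made up 45.0% and 45.2% of the UMIs of Lbr and Tm7sf2 together in hepatocytes, 96.5% and 100% in liver T cells, and 96.5% and 100% in aortic T cells. In smooth muscle the share was 98.0% and 69.0%, from 49 and 29 UMIs. Tm7sf2 overlaps Vps51 on the same strand and Lbr overlaps Dnah14 on the opposite strand, so either count may hold some reads of a neighbour.

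The esterification enzymes were split more sharply. Soat2, the form known from liver and intestine, gave 97, 68 and 10 UMIs in the hepatocytes of the labelled-DKO, WT on ApoE and WT livers. Soat1, the widely expressed form, gave 0, 3 and 0 UMIs there. Soat1 was therefore 0% (exact Clopper-Pearson interval 0 to 3.73) and 4.23% (0.880 to 11.9) of the pair in hepatocytes of the libraries on ApoE. After thinning, 0 of 2288 labelled-DKO hepatocytes had a Soat1 UMI, which allows a share of up to 0.131%, and 0 of 3714 WT hepatocytes, which allows up to 0.0808%. These limits, from a floor of 3 counts, are for cells with a UMI at that depth and not for cells expressing the gene. Soat2 was no higher per UMI in hepatocytes, at 10.6 and 7.75 CPM, than in liver T cells, at 9.56 and 8.66 CPM (7 and 2 UMIs), beyond counting error. In Kupffer cells Soat1 was 100% of 12 and 90.0% of 10 UMIs of the pair, and in aortic macrophages 100% of 29 and 92.7% of 41. Smooth muscle held 37 and 34 Soat1 UMIs against 4 and 0 Soat2 UMIs. The plot of levels by cell type shows both pairs.

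Npc2, the soluble lysosomal protein that hands cholesterol to NPC1, was highest in macrophages. It reached 577 and 523 CPM in aortic macrophages, 273 and 257 CPM in Kupffer cells, and 236 and 160.1 CPM in liver T cells. Aortic T cells had 248 and 261 CPM, and aortic cells deposited as fibroblasts 233 and 349 CPM. Smooth muscle had 118 and 158 CPM and hepatocytes 83.3 and 109.7 CPM. Kupffer cells were 3.27 (2.46 to 4.29) and 2.34 (1.61 to 3.30) times hepatocytes. Npc1, its membrane partner, had another order: 137 and 128 CPM in hepatocytes, 53.3 and 47.6 CPM in liver T cells, and 22.8 and 20.7 CPM in smooth muscle. Aortic macrophages held 44 and 30 Npc1 UMIs. Per UMI, Npc1 there was past the fold on the higher side against smooth muscle in both libraries. Of the 4 liver classes plotted, hepatocytes had the lowest Npc2 and the highest Npc1 CPM, though the Npc2 interval of endothelial cells reached that of hepatocytes.

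**Figure D1:**
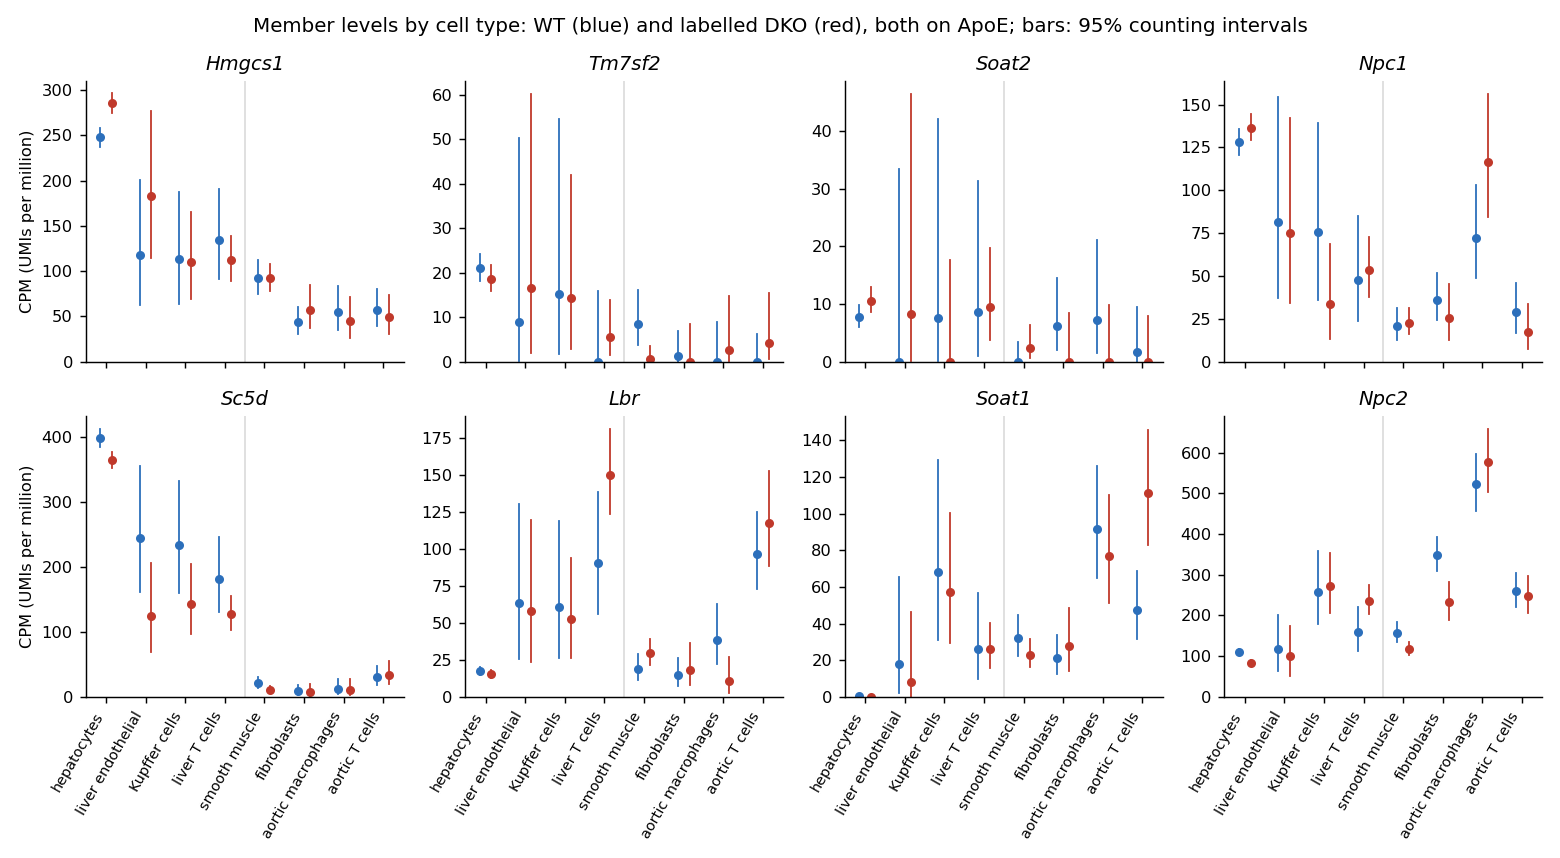
Levels in CPM (y axis, linear, from 0) of 8 sterol genes in 4 liver and 4 aortic classes (x axis, liver left of the grey line), WT in blue and labelled DKO in red, each point 1 library with its 95% counting interval. Hmgcs1, Sc5d and Npc1 sit high in hepatocytes. Lbr is higher in T cells than in hepatocytes. Soat1 and Npc2 are higher in T cells and macrophages than in hepatocytes, as with Npc2 at 577 and 523 CPM in aortic macrophages. Lbr in aortic macrophages of the labelled-DKO library rests on 4 UMIs.

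Hepatocytes also differed among themselves. Cluster 7, led by Cyp2f2, Gldc and Gls2, and cluster 5, led by Glul, Oat and Cyp1a2, carry genes known for the periportal and the pericentral ends of the liver lobule. Cluster 7 had more of the synthesis genes in both libraries on ApoE. Sqle, squalene epoxidase and an oxygen-requiring step, had the widest gap: 109.7 CPM in cluster 7 and 31.2 CPM in cluster 5 of the labelled-DKO library, and 94.8 and 32.8 CPM in the WT library. These are ratios of 3.51 (2.61 to 4.80) and 2.89 (2.01 to 4.21). Idi1 was at 169 and 88.5 CPM, 1.90 times (1.58 to 2.31), in the labelled-DKO library and at 116 and 74.1 CPM, 1.57 times (1.196 to 2.06), in the WT library. Hmgcs1 gave 328 and 204 CPM, 1.61 times (1.41 to 1.83), and 283 and 218 CPM, 1.298 times (1.102 to 1.53). In both libraries the intervals of these 3 genes lay above 1.

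In all, 15 of 26 sterol genes in the labelled-DKO library and 9 of 22 in the WT library were past the fold on the higher side in cluster 7, against 20.8% and 19.2% of all genes. The median log2 ratio was 0.50 and 0.20 for the sterol genes and -0.07 and -0.05 for all genes tested. Clusters were formed by the authors from the same cells, so these counts describe the clusters and are no test. Insig1 and Insig2 were near even between the clusters: Insig1 was at 1.01 (0.872 to 1.18) and 0.972 (0.811 to 1.16) times, and Insig2 at 1.05 (0.936 to 1.18) and 0.925 (0.797 to 1.07) times. Srebf2 was at 1.53 (0.997 to 2.39) and 1.46 (0.865 to 2.50) times. Scap, which escorts SREBP to the Golgi, was at 1.62 (1.108 to 2.40) and 0.878 (0.513 to 1.49) times, and the sterol carrier Stard4 at 1.52 (1.247 to 1.86) and 1.14 (0.884 to 1.48) times. Npc2 went the other way, at 74.2 and 98.4 CPM, 0.755 times (0.608 to 0.937), in the labelled-DKO library and at 97.4 and 117 CPM, 0.834 times (0.646 to 1.07), in the WT library. Cyp51, lanosterol 14-demethylase, was 2.03 times (1.62 to 2.58) as high in cluster 7 of the labelled-DKO library and 1.26 times (0.919 to 1.72) in the WT library. Whether the gradient differs between the libraries was not tested.

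**Figure D2:**
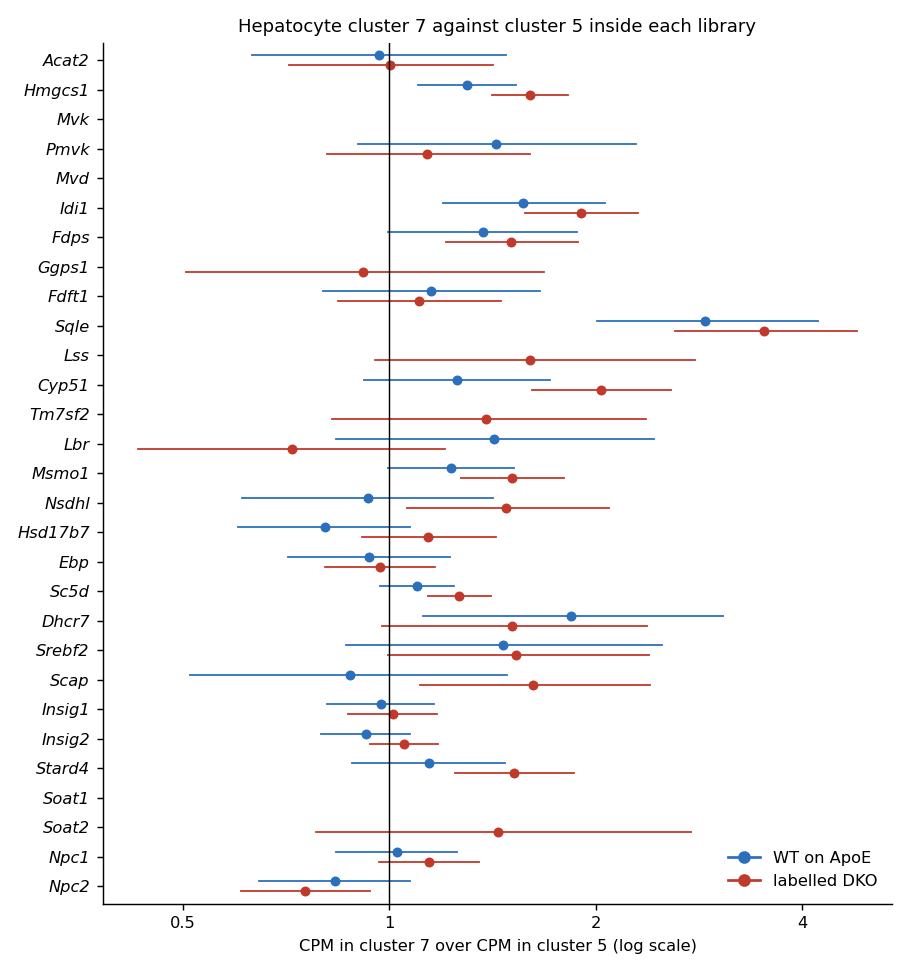
Ratio of CPM in hepatocyte cluster 7 to CPM in cluster 5 (x axis, log scale) for each of the sterol genes (y axis), WT on ApoE in blue and labelled DKO in red, with 95% counting intervals and no point where the clusters held under 50 UMIs together. Sqle lies farthest right in both libraries, at 3.51 and 2.89, and Insig1 and Insig2 lie at 1.

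Between the livers on ApoE, the sterol genes of hepatocytes differed little. Of 28 genes with enough UMIs, 20 were higher and 8 lower in the labelled-DKO library, where 50.6% of all genes were higher, and 7 were past the fold, where 25.4% of all genes were. The median log2 ratio was 0.09, against 0.00 over 9629 genes. The share past the fold was thus near that of all genes. Summed over the 19 enzymes, the 1682 and 1650.0 CPM given above have overlapping intervals, and with mitochondrial, Gm42418, AY036118 and haemoglobin UMIs left out of the denominator the sums were farther apart, at 1987 and 1848 CPM.

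Among the mevalonate enzymes Hmgcs1 was at 285 CPM (2614 UMIs) in the labelled-DKO and 248 CPM (2175 UMIs) in the WT library, 1.15 times (1.09 to 1.22). Mvd, mevalonate diphosphate decarboxylase, rested on 41 and 17 UMIs (4.48 and 1.94 CPM) and gave 2.31 times (1.28 to 4.33). Mvk, mevalonate kinase, gave 98 and 69 UMIs and 1.36 times (0.989 to 1.88). Acat2, Idi1 and Fdps lay between 1.04 and 1.06 times, and Pmvk at 0.897 times (0.776 to 1.04), all 4 with intervals that held 1. Ggps1 was at 1.253 times (0.9498 to 1.66). In this group only Hmgcs1 and Mvd had intervals off 1, and Mvd on few UMIs. Mvd also overlaps Gm20388 on the opposite strand.

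From squalene on, Lss, which closes the ring to lanosterol, was at 16.4 CPM (150 UMIs) and 11.3 CPM (99 UMIs), 1.45 times (1.12 to 1.89). Fdft1, squalene synthase, and Sqle were at 1.01 times (0.892 to 1.15) and 0.970 times (0.866 to 1.09). Of the 9 genes from lanosterol to cholesterol, none was past the fold. Sc5d was at 364 and 398 CPM, 0.915 times (0.872 to 0.960), and Ebp, the sterol isomerase, at 119 and 129 CPM, 0.919 times (0.845 to 0.9998). The other 7 ran from 0.882 times (Lbr) to 1.17 times (Dhcr7) with intervals that held 1. Late pathway enzymes thus lay within about the counting error of even, apart from slightly lower Sc5d and Ebp.

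In the sensing group, Scap was at 32.2 CPM (295 UMIs) and 24.4 CPM (214 UMIs), 1.32 times (1.103 to 1.58). Stard4, a cytosolic sterol carrier, was at 106 and 87.1 CPM, 1.22 times (1.11 to 1.35), just under the fold. Insig1 was at 175 and 188 CPM, 0.930 times (0.868 to 0.997), and Insig2 at 267 and 247 CPM, 1.08 times (1.02 to 1.15). Srebf2 was even, at 1.02 times (0.837 to 1.24). The paired sensors therefore leaned apart by little. Within clusters, Insig2 was at 0.871 to 1.11 times in the 9 clusters of at least 50 cells, lower in 5 of them, with no interval off 1. Clusters 5, 7 and 8, where Insig2 ran from 262 to 310.1 CPM, held 1195 of the 3213 labelled-DKO and 790 of the 4015 WT hepatocytes. Soat2 was at 1.37 times (0.991 to 1.89), and Npc1 at 1.07 times (0.982 to 1.16).

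Npc2 was the gene past the fold on the lower side. It was at 83.3 CPM (763 UMIs) in labelled-DKO and 109.7 CPM (962 UMIs) in WT hepatocytes, 0.759 times (0.690 to 0.836). Thinned to 1000 UMIs, 7.56% and 10.1% of hepatocytes had an Npc2 UMI, with 19.5% and 20.1% unthinned. By CPM it was lower in all 9 clusters, from 0.615 times in cluster 2 (82.2 and 134 CPM) to 0.899 times in cluster 1 (106 and 117 CPM), with the interval below 1 in clusters 2, 7 and 8. Of the 13 sterol genes with enough UMIs in all 9 clusters, Npc2 alone was lower in all of them, and none was higher in all of them. Of all such genes 10.8% were lower in all 9, no smaller a share. With mitochondrial, Gm42418 and haemoglobin UMIs taken out of the denominator the hepatocyte ratio was 0.801.

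**Figure D3:**
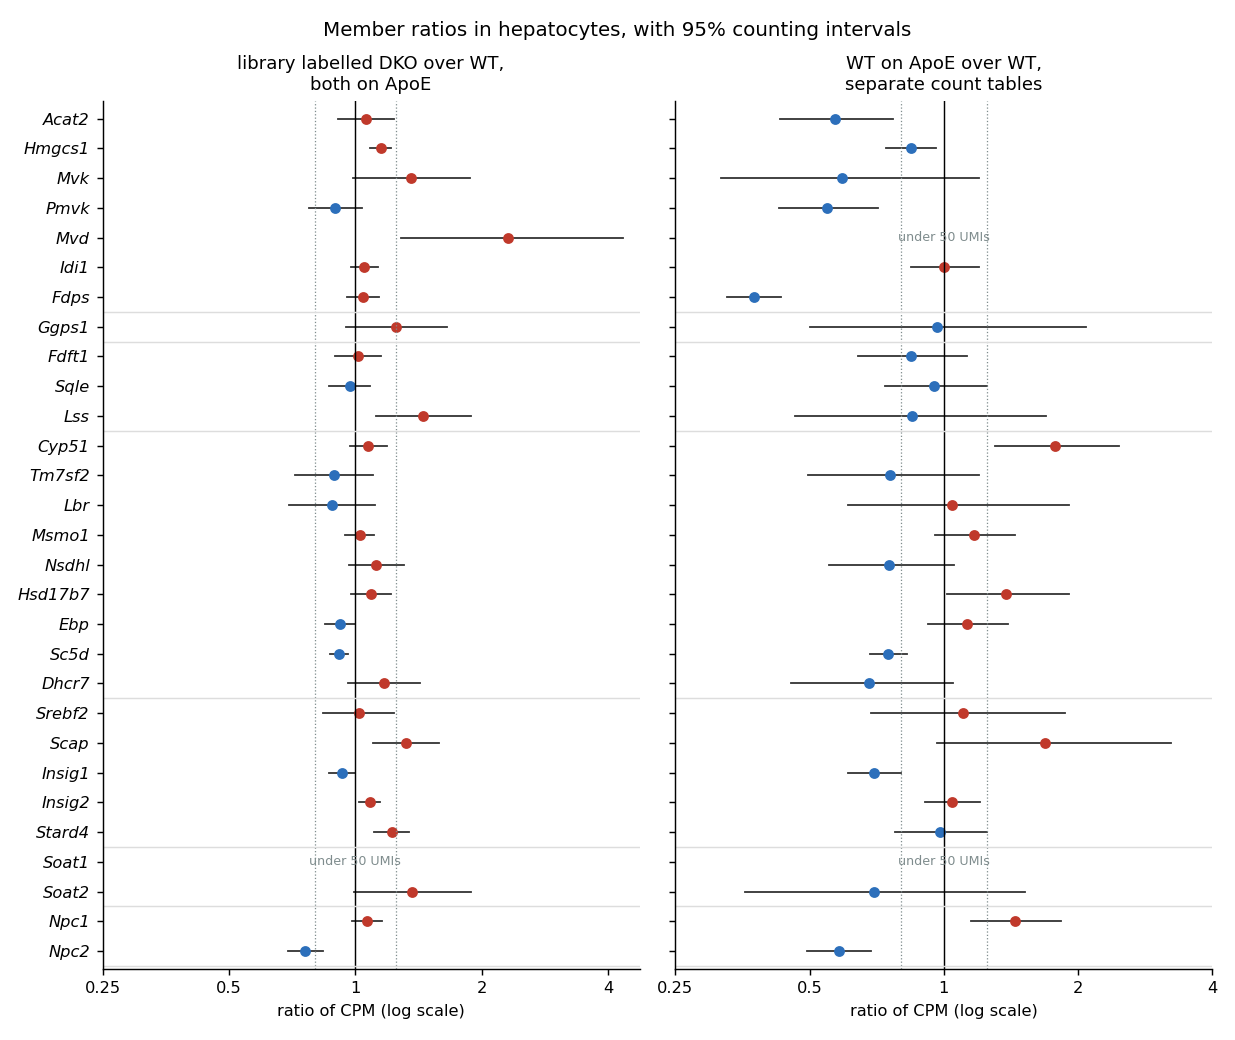
Ratio of CPM in hepatocytes (x axis, log scale) for each sterol gene in order of role, with 95% counting intervals, red above 1 and blue below, dotted lines at 0.8 and its inverse. Left, labelled DKO over WT on ApoE, where most genes lie near 1 and Npc2 is at 0.759, and right, WT on ApoE over the WT liver, where Fdps is at 0.375.

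Within clusters the enzyme ratios depended on the cluster. In cluster 2, Hmgcs1 was at 393 and 238 CPM, 1.65 times (1.37 to 1.99), and Idi1 at 349.6 and 251 CPM, 1.39 times (1.16 to 1.68), while Sc5d was at 267 and 391 CPM, 0.683 times (0.574 to 0.814). In cluster 0, Stard4 was at 1.83 times (1.249 to 2.70), Fdps at 1.52 times (1.14 to 2.02) and Hmgcs1 at 1.40 times (1.13 to 1.72). Hmgcs1 was higher in 6 of the 9 clusters, from 0.885 to 1.65 times, and Sc5d lower in 7. Cluster 2 is also where the share of mitochondrial, Gm42418 and haemoglobin UMIs differed most, 17.6% against 5.36%, and the part of this in its ratios was not tested.

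Cluster 7 had more sterol genes past the fold between the libraries than cluster 5. In cluster 7, 9 of 24 sterol genes were past the fold, near the 32.4% of all genes. Cyp51 was at 119 and 78.7 CPM, 1.51 times (1.19 to 1.94), and Idi1 at 169 and 116 CPM, 1.45 times (1.19 to 1.78). Lbr was at 13.8 and 30.4 CPM there, 0.453 times (0.272 to 0.754), on 33 and 34 UMIs. Cyp51 overlaps Akap9 on the opposite strand. In cluster 5, 17 of 22 sterol genes were lower (48.7% of all genes were) and 1 was past the fold (33.9% of all genes), Nsdhl at 0.758 times (0.510 to 1.13). In cluster 8, 5 of 23 were past the fold (29.2% of all genes), among them Npc2 at 0.709 times (0.550 to 0.914) and Stard4 at 1.32 times (1.04 to 1.67). Summed over the 19 enzymes, cluster 7 held 1901 and 1693 CPM, cluster 5 held 1320.0 and 1402 CPM, and cluster 8 held 1427 and 1494 CPM, in the labelled-DKO and WT libraries.

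Liver cells outside the hepatocyte clusters (949 labelled-DKO and 291 WT cells) mostly had lower values in the labelled-DKO library. Of 23 genes, 17 were lower, where 44.4% of all genes were. Sc5d was at 130.2 and 196 CPM, 0.664 times (0.533 to 0.831), Fdps at 71.2 and 105 CPM, 0.676 times (0.4997 to 0.921), and Insig2 at 71.2 and 102 CPM, 0.696 times (0.513 to 0.9498). Alb was at 0.527 times in the same cells, a wider gap than these, so hepatocyte RNA in these cells moved with these values, and its part in them was not tested. The make-up of this pool differed too. T cells were 386 of the 949 labelled-DKO and 86 of the 291 WT cells, and endothelial cells 65 and 57. The part of this make-up in the pooled ratios was not tested either. In T cells, 9 of 11 genes were past the fold (58.5% of all genes). Ebp was at 54.6 and 103.9 CPM, 0.526 times (0.309 to 0.912), beside Alb at 0.482 times. Lbr and Npc2, which T cells hold above the Alb ratio, were higher in the labelled-DKO T cells: Lbr at 150.2 and 90.9 CPM, 1.65 times (1.03 to 2.78), and Npc2 at 236 and 160.1 CPM, 1.48 times (1.03 to 2.17). These rest on 21 and 37 UMIs in the 86 WT T cells.

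The WT liver on ApoE was set against the liver labelled WT, which has no ApoE label. The tables were made separately, so tables and libraries differ along with the label. The WT on ApoE library also serves as the control of the labelled-DKO liver above. Of 616 cells deposited as hepatocytes in the liver labelled WT, 261 were kept. Left out were a cluster of 244 cells led by Spp1 and Tmsb4x and a cluster of 111 cells led by haemoglobin genes. Over all 616 cells Fdps was at 357 CPM, Cyp51 at 61.05, Npc1 at 69.01 and Npc2 at 229 CPM. The values below are for the 261 cells. Of 27 genes, 17 were lower on ApoE (53.9% of all genes were) and 15 were past the fold (60.3% of all genes), a share near that of all genes. Fdps, farnesyl diphosphate synthase, was at 106 CPM on ApoE and 282 CPM without, 0.375 times (0.326 to 0.432), and its count may hold reads of Gm43738, which overlaps it on the same strand. Pmvk was at 45.0 and 82.2 CPM, 0.548 times (0.427 to 0.713), and Acat2 at 36.2 and 63.3 CPM, 0.571 times (0.430 to 0.771). Hmgcs1 was at 248 and 294 CPM, 0.843 times (0.742 to 0.961), and Idi1 even at 157 CPM in both. Several early enzymes were thus lower on ApoE while others of the same stretch were not.

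Further along, Sc5d was at 398 and 529.6 CPM, 0.752 times (0.683 to 0.829), but Cyp51 at 84.8 and 47.7 CPM, 1.78 times (1.31 to 2.48), and Hsd17b7, a late ketosteroid reductase, at 68.9 and 49.96 CPM, 1.38 times (1.02 to 1.91). Insig1 was at 188 and 269 CPM, 0.699 times (0.610 to 0.803), whereas Insig2 was even at 247 and 237 CPM, 1.04 times (0.907 to 1.21). The lysosomal pair again parted: Npc1 was at 128 and 88.8 CPM, 1.44 times (1.15 to 1.83), and Npc2 at 109.7 and 189 CPM, 0.581 times (0.493 to 0.688). Kupffer cell and macrophage markers stood at 7.87 CPM in the hepatocytes on ApoE and at 225 CPM in those without, and their part in the Npc2 value was not tested. Mvd gave 17 and 20 UMIs and Soat1 3 and 0, too few for a ratio. Across the 27 genes the log2 ratio had a Spearman correlation of 0.36 with the length of the gene in the genome, against 0.15 over 8440 genes, given as a description of these libraries.

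Over all aortic cells, Insig1, Insig2 and Npc2 were lower in the library labelled DKO. Smooth muscle was 1034 of the 2800 labelled-DKO and 636 of the 2800 WT cells. The part of this make-up in the pooled ratios was not tested. Of 24 genes, 16 were lower (50.4% of all genes were) and 5 were past the fold, all of them on the lower side, a smaller share than the 35.9% of all genes past the fold in either direction. Insig2 was at 45.6 CPM (284 UMIs) and 66.0 CPM (421 UMIs), 0.691 times (0.593 to 0.806). Insig1 was at 39.0 and 53.1 CPM, 0.735 times (0.620 to 0.869). Npc2 was at 183 and 259 CPM, 0.705 times (0.653 to 0.760). The other genes past the fold were Stard4, at 6.26 and 11.4 CPM, 0.548 times (0.361 to 0.819), and Hsd17b7, at 8.19 and 13.3 CPM, 0.615 times (0.426 to 0.880). Hmgcs1 was at 68.9 and 63.1 CPM, 1.09 times (0.95 to 1.253), and the 19 enzymes summed to 291 and 293 CPM.

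Insig2 and Npc2 were lower in smooth muscle as well. Of 14 genes with enough UMIs, 9 were past the fold (37.6% of all genes), 7 of them lower, and 3 had an interval off 1. Insig2 was at 56.7 CPM (92 UMIs) and 92.0 CPM (98 UMIs), 0.617 times (0.459 to 0.828). Npc2 was at 118 CPM (191 UMIs) and 158 CPM (168 UMIs), 0.747 times (0.604 to 0.925). Pmvk was at 24.1 and 38.5 CPM, 0.625 times (0.393 to 0.993). Hmgcs1 was even at 1.01 times (0.775 to 1.31). Thinned to 1000 UMIs, 4.25% and 7.93% of smooth muscle cells had an Insig2 UMI (8.51% and 12.6% unthinned), and 11.5% and 13.6% an Npc2 UMI (15.9% and 22.2% unthinned). Thinning left out cells with fewer UMIs. Over both libraries the median was 2261 UMIs a cell in the smooth muscle subtype VS1, 926 in VS2 and 593 in VS3, so the thinned shares describe mostly the deeper cells.

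The clusters deposited as "Hematopoietic stem cells" are led by genes of other kinds (Mmp13 and Sfrp2 in HS2, Col2a1 and Acan in HS3). Of 13 genes there, 9 were past the fold, where 62.2% of all genes were. Npc2 was at 128 and 255 CPM, 0.502 times (0.420 to 0.599), and Insig2 at 41.4 and 82.1 CPM, 0.504 times (0.366 to 0.690). Lbr was higher, at 32.2 and 17.3 CPM, 1.87 times (1.13 to 3.16), and Cyp51 lower, at 22.4 and 39.3 CPM, 0.568 times (0.360 to 0.884). Over the aortic subtypes, Npc2 had enough UMIs in 12 and was lower in 10, with the interval below 1 in 5, from 0.449 times in HS1 (62.0 and 138 CPM) to 1.19 times in the macrophage subtype MP2 (428 and 361 CPM). The macrophage subtype MP1 was even, at 791 and 777 CPM. Insig2 had enough UMIs in 6 subtypes and was lower in 5, from 0.435 times in HS2 to 1.13 times in AP1, with the interval below 1 in 3. How many of all genes were lower in as many subtypes was not counted, for Npc2 or for Insig2. In aortic T cells Soat1 was at 111 and 47.4 CPM, 2.35 times (1.46 to 3.86), and Insig1 was at 0.432 times (0.217 to 0.808).

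**Figure D4:**
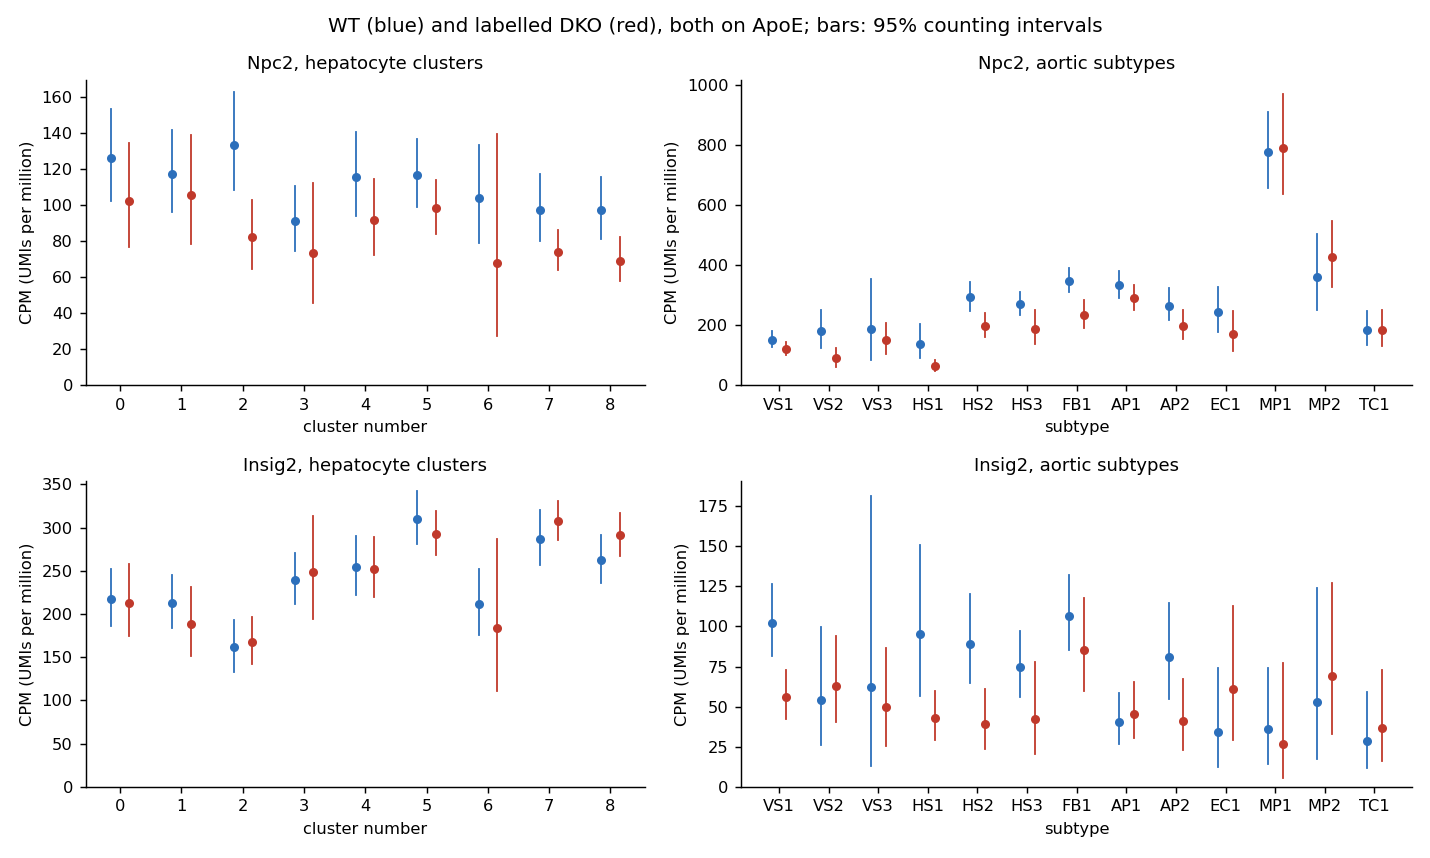
Npc2 (top) and Insig2 (bottom) in CPM (y axes, linear, from 0) by hepatocyte cluster (left) and aortic subtype (right), WT in blue and labelled DKO in red, each point 1 library with its 95% counting interval. Npc2 points of the labelled-DKO library lie lower in all 9 hepatocyte clusters but not in the macrophage subtypes MP1 and MP2, and Insig2 is lower in the aortic subtypes HS1, HS2 and VS1.

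Other genes of the pathway, taken from 5 lists, had 4 genes past the fold in hepatocytes of the livers on ApoE. They are read against the shares over all genes, of which 50.6% were higher and 25.4% past the fold. All 4 remaining genes of sterol synthesis had enough UMIs, with 3 higher and 1 lower. The lower one was Erg28, a scaffold of the demethylation complex, at 101 and 126 CPM, 0.798 times (0.731 to 0.872), the only one of the 4 past the fold. Of the isoprenoid branch genes, 4 of 6 were higher, with Pggt1b, a subunit of geranylgeranyl transferase, at 25.0 and 18.5 CPM, 1.35 times (1.102 to 1.67), and with Pdss1, a subunit of the enzyme that makes the coenzyme Q side chain, at 4.48 and 6.73 CPM, 0.665 times (0.435 to 1.01). Both were past the fold, the latter with an interval that held 1. Of 9 genes for SREBP processing and reductase degradation, 7 were higher and 0 past the fold; Srebf1, the SREBP1 gene, was at 74.1 and 61.2 CPM, 1.21 times (1.08 to 1.36). Of 5 genes of LXR and sterol export, 2 were higher and 3 lower, also 0 past the fold. Of 9 genes of sterol transport and ester hydrolysis, 6 were higher and 3 lower, with Lipa, lysosomal acid lipase, at 148 and 120.5 CPM, 1.23 times (1.14 to 1.34), and Stard3, a late endosomal sterol carrier, past the fold at 4.04 and 3.19 CPM, 1.27 times (0.753 to 2.15). In smooth muscle the 5 lists gave 2 higher of 3, 3 of 5, 3 of 6, 2 of 3 and 1 of 3 with enough UMIs, in the same order, where 41.3% of all genes were higher.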

How the data were processed

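Droplet single-cell libraries of mouse liver and aorta were analysed from 3 deposited gene-by-cell tables of UMI counts, as whole numbers before any scaling. The authors aligned and counted reads with Cell Ranger 7.1.0 on mm10, per the submitters' processing notes. Deposited cell annotations gave library, cell type, subtype and cluster, and 27 further columns in each of the 3 annotation tables were not used. No doublet caller was run. Cells were kept as deposited, UMIs were summed per library and class of at least 50 cells, and CPM was given with exact Poisson intervals. Ratios had exact conditional binomial intervals and shares Clopper-Pearson intervals, all at 95% and for counting error only. A floor of 3 UMIs applied to counts of 0. Clusters whose leading genes held more markers of another class were left out of the hepatocyte class. Named in a cell type or cluster were genes past the fold whose interval left out 1, plus all 29 genes in the main class. The genes and the pathway lists were chosen with earlier results of these data known. Values came from Python 3.11.15 with numpy 2.4.6, pandas 2.3.3 and scipy 1.17.1. The ratio intervals were checked on simulated counts with counting error alone. That check covers the calculation and not variation between cells, animals or libraries. Gene positions came from GENCODE on GRCm38. Promoter windows were matched by symbol, with none for Fdps, Fdft1, Sqle, Stard4, Soat2 and Npc1.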

Additional observations from a re-analysis of the deposited data

Results flagged for a closer look

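Npc2 and Fdps had ratios of the labelled-DKO to the WT library that lay on opposite sides of 1 in different cell types, each with a counting interval off 1. Npc2 was at 1.48 times (1.03 to 2.17, on 173 and 37 UMIs) in liver T cells, and at 0.759 times in hepatocytes. In aorta it was at 0.747 times in smooth muscle, 0.667 times in cells deposited as fibroblasts and 0.502 times in the clusters deposited as "Hematopoietic stem cells". Fdps was at 1.92 times (1.05 to 3.63, on 33 and 18 UMIs) in the aortic clusters deposited as "Adipocytes", whose leading genes include the fibroblast markers Pi16 and Dpt, and at 0.535 times (0.312 to 0.938, on 39 and 23 UMIs) in liver T cells. With 1 library a group, none of these differences was tested. In liver T cells Alb was at 0.482 times, a value inside the Fdps interval and far below Npc2. The part of hepatocyte RNA in the Fdps ratio was not tested.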

How the results depend on the processing

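No paired analysis was possible because each group has 1 library, and for the same reason no replicate could be left out. Of 750 alternative values of single genes, 727 stayed within their counting interval, 23 moved and 0 changed side among called ratios. Values under another minimum of UMIs (20 or 200) stay the same by construction, since that limit does not enter a ratio. They are among the 727, so that number is no measure of stability. Counts past the fold followed the limits set. In the hepatocyte class 7 became 4 at a minimum of 200 UMIs and 1 at a fold of 1.5. Over hepatocyte clusters 60 became 18 and 21 under the same changes. Over the other liver clusters 10 became 31 at 20 UMIs and 1 at 200 UMIs. For WT on ApoE over WT, 15 became 7 at a fold of 1.5. In aortic classes 26 of 44 values became 66 at 20 UMIs, 4 at 200 UMIs, 10 at a fold of 1.5 and 5 with all aortic cells pooled. The balance of higher to lower calls moved too. In the hepatocyte class 6 to 1 became 7 to 0 without mitochondrial, Gm42418, AY036118 and haemoglobin UMIs in the denominator, and 5 to 2 with each cell weighted alike or with clusters 5, 7 and 8 only. Over hepatocyte clusters 34 to 26 became 38 to 13 with that denominator and 37 to 17 with median centring. In the aorta 4 to 22 became 24 to 42 at 20 UMIs and 6 to 17 with each cell weighted alike. That denominator moved log2 ratios by 0.20 in cluster 2 and by 0.08 in the hepatocyte class, and the enzyme sums to 1848 CPM (WT hepatocytes), 1987 CPM (labelled-DKO hepatocytes) and 386 CPM (labelled-DKO smooth muscle). The share of hepatocytes with a UMI of any of the 19 enzymes was 79.5% (WT) and 77.1% (labelled DKO) at 1000 UMIs a cell, 57.3% and 56.1% at 500, and 91.8% and 88.8% unthinned. Depth limits the T cells, Kupffer cells and aortic subtypes most, where most of these genes held under 50 UMIs.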

Other observations

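Among liver cells not described above, B cells gave 801 CPM (724 to 884) of the 19 enzymes in the labelled-DKO and 782 CPM (657 to 924) in the WT library, and endothelial cells 1056 CPM (881 to 1257) and 1148 CPM (957 to 1366). Neutrophils, with enough cells in the labelled-DKO library alone, gave 1080.0 CPM (854 to 1348). Hepatocyte RNA was present here too: Alb stood at 23330 CPM in endothelial cells against 37794 CPM in hepatocytes of the labelled-DKO library, and at 34724 against 44388 CPM in the WT library. Over all cells outside the hepatocyte clusters Alb was at 14265 and 27062 CPM. The part of hepatocyte RNA in these enzyme sums was not tested, so they are not read as the cells' own levels. In B cells of the labelled-DKO library Soat1 was 90.9% (70.8 to 98.9) of the UMIs of Soat1 and Soat2, and Lbr 95.2% (83.8 to 99.4) of those of Lbr and Tm7sf2.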
